A study of Drosophila melanogaster with 27 samples.

Results

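The activating signal of the epidermal growth factor receptor (EGFR) was followed through 6 of its genes across 9 conditions of the Drosophila eye imaginal disc. These genes are 3 ligand genes, spitz (spi), Keren (Krn) and vein (vn), the chaperone gene Star (S), and the rhomboid protease genes rhomboid (rho) and roughoid (ru). The members were found by matching the identifier printed for each spot to the CG number or symbol of a member, or to an older number of it. All 6 genes were found, by 6 probes of 16500 and as 6 of 11516 genes that could be named. The probes are CG10334 for spi, CG8056f for Krn, CG10491 for vn, CG4385 for S, CG1004 for rho and CG1214 for ru. For Krn the current number CG32179 was not among the identifiers, and CG8056f was matched through an older number and its transcript number. A second probe, CG8056g, carries the same older number, which also belongs to the neighbouring gene Ndfip, so it was kept apart.

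The study compared RNA of third-instar discs that hold many, few or extra photoreceptors with RNA of normal discs on 27 two-colour glass arrays of PCR products. The morphogenetic furrow is a front that sweeps across the eye disc and leaves differentiating retinal cells in its wake. R8 is the photoreceptor that each facet forms before its others. The tested RNAs came from micro-dissected w1118 fragments behind the furrow (4 arrays), or from whole discs of a mutant: homozygous ato1 (3 arrays), homozygous and heterozygous roDom (3 and 2), homozygous and heterozygous E(roDom)2033 (3 and 2), homozygous hh1 (4), roX63 (3) and Su(roDom)519 (3). The labels used give no zygosity for roX63 and Su(roDom)519. Here ato1 and hh1 are alleles of atonal and hedgehog, and roX63 and roDom are alleles of rough. E(roDom)2033 and Su(roDom)519 are an enhancer and a suppressor of roDom. Every tested RNA shared its array with 1 common reference, whole eye-antennal discs of an isogenized w1118 stock. The w1118 stock lacks eye pigment but forms its facets normally. Mutant tissue is named as eye-antennal discs in the titles and as eye discs in the design text, and the posterior fragments hold no antennal part, whereas the reference does. By the study's account, too many R8 cells form in discs of roX63 and of Su(roDom)519, whereas the furrow halts early in the discs of the other 4 mutants, only mildly so in E(roDom)2033. Below, extra-R8 discs means the 6 arrays of the first pair, and stop-furrow discs means the 13 arrays of homozygous ato1, hh1, E(roDom)2033 and roDom larvae.

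As background, Spitz and Keren are made as inactive membrane proteins. Star carries them out of the endoplasmic reticulum, and a rhomboid protease cuts them inside the membrane, which sets the active ligand free. Vein is secreted without this step. In the fly eye the R8 cell and its neighbours release Spitz behind the furrow to recruit the remaining photoreceptors and to keep cells alive, and Rhomboid and Roughoid act there side by side.

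Each array held 17664 spots, of which 45.6% to 93.3% were above background in at least 1 channel, with a median net test signal of 23 to 345 intensity units. Both lowest values are those of posterior replicate 1, on which 10271 spots were scored as not found. The next lowest share was 65.1%, on hh1 replicate 1. The tested RNA was amplified by one more round than the reference RNA and came from few discs per sample, so a ratio against the reference also carries any effect of that difference, which was not tested. No normal discs were hybridised against the reference. A ratio tested against 0 therefore treats the reference as 1 control sample, whereas a difference between conditions cancels the reference. Arrays were scanned on 9 days, 5 of which held more than 1 condition. By their titles the arrays were also of 3 array series. The 5th series held 3 arrays, roDom homozygote replicates 1 and 2 and hh1 replicate 1. The 6th series held only posterior replicate 1, and the 7th the other 23 arrays. Some labels conflict. For E(roDom)2033, the titles of homozygous replicates 2 and 3 disagree with their characteristics, which say heterozygous, and the dye order in the header of roDom homozygote replicate 2 contradicts its labels. Titles and labelled dyes were used, and the value under the other reading is given for member results whose call it changed. The mutated genes check the labels only in part. In hh1 discs hh was lower (-1.16 ± 0.17, adjusted p = 0.000213), as it was in discs of 6 of the 7 other mutant conditions. The gene ro was higher in roDom heterozygotes (1.04 ± 0.15, adjusted p = 0.00097) and stood at 0.13 ± 0.13 in roDom homozygotes and -0.08 ± 0.13 in roX63 discs, and ato stood at -0.06 ± 0.11 in ato1 discs. 

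Cells other than those of interest can move with a result, so marker genes were read on the same arrays. The photoreceptor markers elav, chp, Fas2, sca, sens, lz, run and gl had, as a mean over the 8 genes on each array, log2 ratios of 0.47 to 0.81 in posterior fragments, -0.20 to 0.11 in roX63, -0.48 to 0.00 in Su(roDom)519, -1.15 to -0.56 in ato1, -0.55 to -0.37 in roDom homozygotes, -0.84 to -0.47 in roDom heterozygotes, -1.20 to -1.13 in E(roDom)2033 homozygotes, -0.62 to -0.11 in E(roDom)2033 heterozygotes and -0.51 to -0.26 in hh1 discs. Of these 8 genes 5 were higher in posterior fragments than in stop-furrow discs. The 4 muscle markers Mhc, Mlc2, Act57B and up, which mark tissue outside the disc epithelium, averaged 1.79 to 3.16 in roX63, 0.02 to 3.16 in ato1 and 0.68 to 2.63 in roDom homozygotes, against -0.09 to 1.61 in posterior fragments and 0.02 to 0.78 in hh1 discs, with the other conditions between -0.18 and 1.52. The 3 fat body markers Lsp2, Fbp1 and Lsp1gamma averaged 0.47 to 3.09 in ato1, 0.06 to 2.31 in roX63, 0.61 to 2.47 in E(roDom)2033 heterozygotes, 0.47 to 1.18 in roDom heterozygotes, -0.01 to 1.54 in E(roDom)2033 homozygotes, -0.72 to 1.33 in roDom homozygotes and -0.09 to 0.98 in Su(roDom)519 discs, against -0.07 to 0.45 in posterior fragments and -0.12 to 0.33 in hh1 discs. None of the 3 fat body markers was called in the comparisons between conditions. Of 4 glia markers 3 were measured, and they averaged -0.02 to 0.80 in posterior fragments and -0.63 to 0.40 in the mutants. The glia marker loco was higher in posterior fragments than in stop-furrow discs (1.51, adjusted p = 4.84e-05) and extra-R8 discs (1.03, adjusted p = 0.011), its other probes reading 0.00 to 1.38 and 0.11 to 0.92. Of 5 hemocyte markers 4 were measured, at 0.02 to 1.0 in posterior fragments and -0.97 to 1.55 in the mutants, and none was called between conditions. The 6 antenna markers averaged -0.42 to -0.06 in posterior fragments and -0.69 to 0.08 in the mutants, and the 7 markers of eye progenitors -0.51 to 0.16 in posterior fragments and -0.67 to 0.47 in the mutants. In posterior minus stop-furrow discs 2 of the 7 eye progenitor markers were higher and 1 lower, and of the 6 antenna markers 1 was higher and 1 lower. The part of these cells in the results was not tested. A ratio has no zero level, so absence of a marker cannot be read from it.

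The 2 protease genes changed most. In posterior fragments ru was 2.91-fold and rho 1.97-fold above the reference. Among the 8 mutant conditions ru was lower in 4 and rho in 6, with the lowest means in ato1 discs, where ru was 7.83-fold and rho 5.27-fold lower. The ligand gene spi was lower in 3 conditions, S was slightly lower in 6, Krn was called in 2, and vn passed the test in none. In what follows a change is a log2 ratio of test over reference, or a difference of such ratios, with its standard error, from 1 limma fit to all arrays. A change was called at a Benjamini-Hochberg adjusted p under 0.05 over 16494 tested probes, and all 6 members were tested in all 19 comparisons. Where single arrays were left out, these were only arrays of the conditions that a result compares. Ranges of arrays that do or do not overlap are given for the members as a description. The share of all probes with such ranges was not counted. In bulk RNA, fewer cells of a type and less RNA per cell cannot be told apart.

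**Figure D1:**
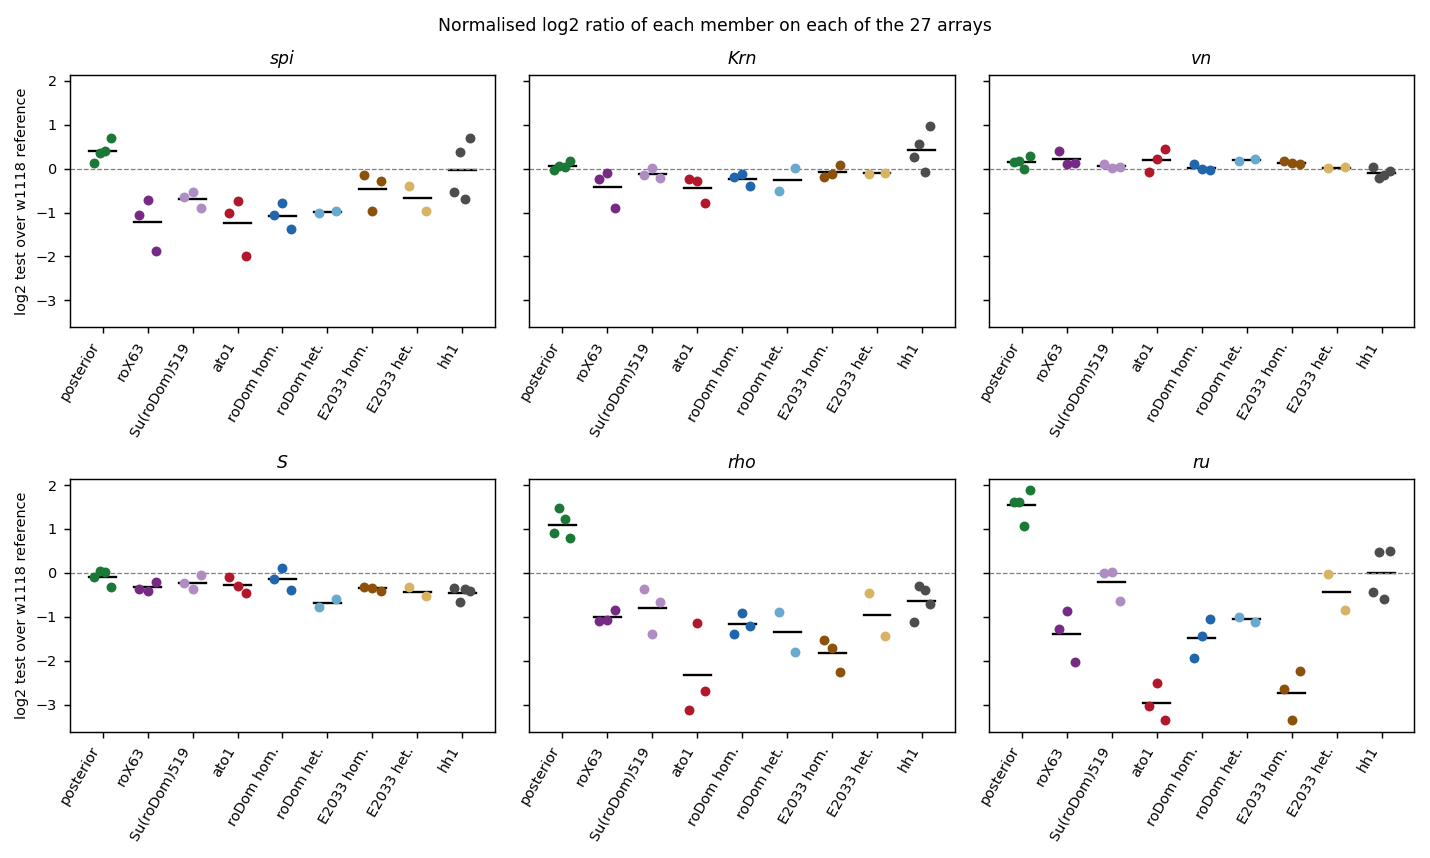
Normalised log2 ratio of test over w1118 reference (vertical axis) of each of the 6 members on each of the 27 arrays, by condition (horizontal axis), with 1 point per array and a black line at the mean of a condition. The ru points of posterior fragments lie between 1.07 and 1.88 and those of ato1 discs between -3.35 and -2.52, while all vn points lie between -0.21 and 0.44.

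Against the reference, the members were called as follows. In posterior fragments 2 of 6 members were called, both higher, where 4.6% of all probes were called. In roX63 discs 5 of 6 were called, all lower, where 12.8% of probes were called. In Su(roDom)519 discs 0 of 6 were called with limma, against 4.4% of probes, and the unadjusted p was under 0.05 for rho (p = 0.00779), spi (p = 0.0137) and S (p = 0.0372). In ato1 discs 4 of 6 were called lower, against 10.1% of probes. In roDom homozygotes 3 of 6 were lower, against 4.03% of probes, and in roDom heterozygotes 2 of 6, against 4.89%. In E(roDom)2033 homozygotes 3 of 6 were lower, against 13.2%, and in the heterozygotes 1 of 6, against 3.41%. In hh1 discs 2 of 6 were lower and 1 was higher, against 5.37% of probes. The median change of the 6 members was 0.29 in posterior fragments, -0.69 in roX63, -0.20 in Su(roDom)519, -0.82 in ato1, -0.63 in roDom homozygotes, -0.84 in roDom heterozygotes, -0.41 in E(roDom)2033 homozygotes, -0.43 in E(roDom)2033 heterozygotes and -0.05 in hh1 discs. The medians of all probes lay between 0.00 and 0.01 in these conditions.

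Spitz is the main EGFR ligand of the developing retina. On the posterior arrays spi stood at 0.14, 0.36, 0.41 and 0.69. The roX63 arrays gave -1.07, -0.72 and -1.87, and the Su(roDom)519 arrays -0.64, -0.53 and -0.90. The ato1 arrays gave -1.0, -0.73 and -1.99. Every posterior array was above the reference and every array of these 3 mutants below it. In roDom homozygotes spi read -1.06, -0.79 and -1.37, and in roDom heterozygotes -1.0 and -0.97. In E(roDom)2033 homozygotes it read -0.15, -0.96 and -0.27, and in the heterozygotes -0.39 and -0.97. The hh1 arrays were split, with -0.53, 0.38, -0.69 and 0.71. Called changes of spi were those in ato1 discs (-1.23 ± 0.26, adjusted p = 0.0035), roX63 discs (-1.23 ± 0.26, adjusted p = 0.00327) and roDom homozygotes (-1.06 ± 0.26, adjusted p = 0.0241). The value in posterior fragments was 0.41 ± 0.23 (adjusted p = 0.442). The ato1 call was lost without ato1 replicate 3 (-0.77, adjusted p = 0.161), and the roX63 call without roX63 replicate 3 (-0.86, adjusted p = 0.143) and with scanning day as a fixed block (-0.50, adjusted p = 0.225). The roDom homozygote call was lost without any 1 of its 3 arrays and, with replicate 2 turned by its header, the change was -0.55 (adjusted p = 0.671). It was also lost with scanning day (-0.88, adjusted p = 0.221) or array series (-1.0, adjusted p = 0.191) as a fixed block.

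Ordered by their mean, the spi levels were lowest in ato1 (-1.24 ± 0.66, SD, n = 3) and roX63 discs (-1.22 ± 0.59, n = 3) and highest in posterior fragments (0.40 ± 0.23, n = 4). Of the 8 steps between neighbours in this order, 1 was between ranges that did not overlap, that of roDom heterozygotes (-0.99 ± 0.03, n = 2) and Su(roDom)519 discs (-0.69 ± 0.19, n = 3). The spi spot was the brightest of the members, at percentile 96.9 of the mean log2 intensity of all probes, and it was above background in both channels on 27 of 27 arrays.

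Keren is the second rhomboid-dependent ligand, and it is known to act beside Spitz in the eye. Its probe stood at 0.26, 0.55, -0.07 and 0.98 on the hh1 arrays, which was the highest mean of the 9 conditions (0.43 ± 0.45, SD, n = 4). On the roX63 arrays it read -0.24, -0.10 and -0.90, and on the ato1 arrays -0.24, -0.28 and -0.79. The posterior arrays lay close to the reference, between -0.02 and 0.18. Krn was called higher in hh1 discs (0.48 ± 0.13, adjusted p = 0.0255) and lower in roX63 discs (-0.45 ± 0.14, adjusted p = 0.0433), and its value in ato1 discs was -0.40 ± 0.14 (adjusted p = 0.0872). The hh1 call was lost without hh1 replicate 4 (0.32, adjusted p = 0.303) or replicate 2 (0.43, adjusted p = 0.131), and the roX63 call without roX63 replicate 3 (-0.25, adjusted p = 0.609) or replicate 1 (-0.50, adjusted p = 0.0913). With the scanning day fitted as a fixed block, the changes were 0.18 in hh1 discs and -0.015 in roX63 discs. In order of mean, the ranges of all 8 neighbouring pairs of conditions overlapped for Krn. The undecided probe CG8056g was called in none of the 19 comparisons and had means between -0.21 and 0.21.

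Vein is a neuregulin-like ligand that needs no rhomboid cut. Its log2 ratio on the 27 arrays ran from -0.21 to 0.44 with a median of 0.11. The condition means ran from -0.10 ± 0.11 in hh1 discs (SD, n = 4) to 0.22 ± 0.16 in roX63 discs (n = 3). None of its 19 changes was called by limma, and the lowest adjusted p was 0.0821, in roX63 discs (0.20 ± 0.07). The unadjusted p was under 0.05 in 5 of the 19, among them posterior fragments (0.17 ± 0.06) and ato1 minus hh1 discs (0.28 ± 0.10). The 95% interval of the posterior change was 0.03 to 0.30, and that of posterior minus stop-furrow -0.06 to 0.25. The vn spot was the dimmest of the members, above background in the test channel on 24 of 27 arrays and in the reference channel on 25 of 27, which limits how small a difference it can show. The ato1 value (0.21 ± 0.07) was called without ato1 replicate 1 (0.33, adjusted p = 0.0112), with scanning day as a fixed block (0.31, adjusted p = 0.0113) and with print-tip loess (0.21, adjusted p = 0.0487). The roX63 value was called with print-tip loess (0.23, adjusted p = 0.0241), and ato1 minus hh1 without ato1 replicate 1 (0.41, adjusted p = 0.026). In order of mean, 1 of 8 neighbouring pairs had separate ranges, Su(roDom)519 (0.05 ± 0.04, n = 3) and E(roDom)2033 homozygous discs (0.14 ± 0.03, n = 3).

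Star is the cargo chaperone of Spitz and Keren. Its ratios were below 0 on 24 of 27 arrays and spanned -0.79 to 0.12, a range much narrower than that of the proteases. On the roDom heterozygote arrays S read -0.79 and -0.60, and on the hh1 arrays -0.35, -0.66, -0.38 and -0.42. The posterior arrays read -0.10, 0.05, 0.02 and -0.32, on both sides of the reference. S was called lower in 6 of 9 conditions by limma. In the 10 differences between conditions it was called in 0, and the unadjusted p was under 0.05 in 2, posterior minus stop-furrow discs and roDom homozygotes minus heterozygotes. The changes were -0.69 ± 0.11 in roDom heterozygotes (adjusted p = 0.00191), -0.48 ± 0.08 in hh1 (adjusted p = 0.000963), -0.43 ± 0.11 in E(roDom)2033 heterozygotes (adjusted p = 0.0399), -0.34 ± 0.09 in E(roDom)2033 homozygotes (adjusted p = 0.0183), -0.31 ± 0.09 in roX63 (adjusted p = 0.0283) and -0.30 ± 0.09 in ato1 discs (adjusted p = 0.0399). With any 1 of its own arrays left out, the hh1 call held, with changes from -0.52 to -0.40, and the other 5 were lost without at least 1 of their own arrays. Those arrays were both roDom heterozygotes (-0.54 without replicate 1 and -0.84 without replicate 2), both E(roDom)2033 heterozygotes (-0.49 and -0.36), E(roDom)2033 homozygote replicates 1 and 3 (-0.33 each), ato1 replicates 2 and 3 (-0.28 and -0.23), and each roX63 array (-0.31, -0.29 and -0.34). All 6 were lost with scanning day as a fixed block, with changes from -0.62 to -0.22. The S spot was above background on 26 of 27 arrays in the test channel and 25 of 27 in the reference channel. In the order of S means no 2 neighbouring conditions had separate ranges.

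Rhomboid is the founding member of the rhomboid family of intramembrane proteases and cuts Spitz and Keren. The posterior arrays gave 0.91, 1.48, 1.23 and 0.79 for rho, and these were the only 4 of the 27 arrays above 0. The roX63 arrays gave -1.09, -1.08 and -0.85, and the Su(roDom)519 arrays -0.36, -1.39 and -0.65. The ato1 arrays gave -3.13, -1.13 and -2.69, the widest spread of any condition for this gene. In roDom homozygotes rho read -1.38, -0.91 and -1.22, and in roDom heterozygotes -0.89 and -1.81. In E(roDom)2033 homozygotes it read -1.53, -1.71 and -2.25, and in the heterozygotes -0.47 and -1.45. The hh1 arrays gave -1.13, -0.31, -0.39 and -0.71, all below the posterior arrays.

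Of the 9 condition changes of rho, 7 were called. They were 0.98 ± 0.21 in posterior fragments (adjusted p = 0.00918), -0.93 ± 0.24 in roX63 (adjusted p = 0.0151), -2.40 ± 0.24 in ato1 (adjusted p = 1.18e-06), -1.25 ± 0.24 in roDom homozygotes (adjusted p = 0.00618), -1.35 ± 0.30 in roDom heterozygotes (adjusted p = 0.0125), -1.75 ± 0.24 in E(roDom)2033 homozygotes (adjusted p = 7.1e-05) and -0.75 ± 0.21 in hh1 discs (adjusted p = 0.0424). The value was -0.72 ± 0.24 in Su(roDom)519 discs (adjusted p = 0.107) and -0.96 ± 0.30 in E(roDom)2033 heterozygotes (adjusted p = 0.0811), which was called lower with homozygote arrays 2 and 3 read as heterozygous (-1.33, adjusted p = 0.00164). The calls in ato1 and E(roDom)2033 homozygotes held under all 14 alternative settings and with each array left out. The posterior call was lost without posterior replicate 2 (0.90, adjusted p = 0.0523) or 4 (0.96, adjusted p = 0.0837) and with roDom homozygote replicate 2 turned by its header (0.95, adjusted p = 0.0669). The call in roDom homozygotes was lost without replicate 1 (-1.32, adjusted p = 0.0533) and with replicate 2 turned by its header (-0.66, adjusted p = 0.588). It was also lost with scanning day (-1.39, adjusted p = 0.0616) or array series (-1.11, adjusted p = 0.102) as a fixed block. The calls in roDom heterozygotes (-1.59 and -1.11), hh1 (-0.88 to -0.55) and roX63 (-0.97 to -0.83) were lost without any 1 of their own arrays, and the hh1 call also in 7 of the 14 settings. In order of mean, 1 of 8 neighbouring pairs had separate ranges, hh1 discs (-0.63 ± 0.37, SD, n = 4) and posterior fragments (1.10 ± 0.31, n = 4).

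Roughoid is the rhomboid protease known chiefly for its role in the eye, and its gene had the widest range of the members, from -3.35 to 1.88. The posterior arrays gave 1.62, 1.61, 1.07 and 1.88, above every one of the other 23 arrays. The roX63 arrays gave -1.28, -0.86 and -2.02, and the Su(roDom)519 arrays 0.00, 0.03 and -0.64. The ato1 arrays gave -3.03, -2.52 and -3.35. In E(roDom)2033 homozygotes ru read -2.63, -3.35 and -2.23, and in the heterozygotes -0.03 and -0.84. These 2 homozygous mutants overlapped each other and no other condition. In roDom homozygotes ru read -1.93, -1.43 and -1.06, and in roDom heterozygotes -0.99 and -1.12. The hh1 arrays straddled the reference, with -0.44, 0.48, -0.59 and 0.50.

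Of the 9 condition changes of ru, 5 were called. They were 1.54 ± 0.23 in posterior fragments (adjusted p = 0.000344), -1.39 ± 0.26 in roX63 (adjusted p = 0.00151), -2.97 ± 0.26 in ato1 (adjusted p = 2.16e-07), -1.48 ± 0.26 in roDom homozygotes (adjusted p = 0.00305) and -2.73 ± 0.26 in E(roDom)2033 homozygotes (adjusted p = 7.74e-07). The value was -0.20 ± 0.26 in Su(roDom)519 (adjusted p = 0.87), -1.06 ± 0.32 in roDom heterozygotes (adjusted p = 0.0624), -0.43 ± 0.32 in E(roDom)2033 heterozygotes (adjusted p = 0.587) and -0.02 ± 0.23 in hh1 discs (adjusted p = 0.983), with a 95% interval of -0.50 to 0.47 in hh1. The ato1 and E(roDom)2033 homozygote calls held under all 14 alternative settings and with each array left out. The posterior call held with each array left out (1.39 to 1.70) and was lost with scanning day as a fixed block (1.15, adjusted p = 0.0977). The roX63 call was lost without roX63 replicate 3 (-1.0, adjusted p = 0.0841) and with the day block (-0.94, adjusted p = 0.0621), and the roDom homozygote call without replicate 1 (-1.21, adjusted p = 0.089) and with replicate 2 turned by its header (-0.55, adjusted p = 0.751). The roDom homozygote call was also lost with scanning day (-0.95, adjusted p = 0.334) or array series (-1.14, adjusted p = 0.111) as a fixed block. In order of mean the ranges of 3 of 8 neighbouring pairs were separate: roDom homozygotes (-1.47 ± 0.44, SD, n = 3) stood apart from E(roDom)2033 homozygotes (-2.74 ± 0.57, n = 3), E(roDom)2033 heterozygotes (-0.43 ± 0.57, n = 2) from roDom heterozygotes (-1.06 ± 0.09, n = 2), and posterior fragments (1.54 ± 0.34, n = 4) from hh1 discs (-0.01 ± 0.58, n = 4). The other 5 neighbouring pairs had overlapping ranges.

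Differences between conditions leave the reference out. Posterior fragments, which hold only tissue behind the furrow, were set against stop-furrow discs, whose furrow halts early by the study's account. The fragments were dissected from w1118 discs, whereas the stop-furrow samples were whole discs of mutants. Dissection, genotype and the state of the furrow therefore cannot be told apart in this comparison. Photoreceptor markers were not equally low in these mutants, averaging -1.20 to -1.13 on E(roDom)2033 homozygote arrays and -0.51 to -0.26 on hh1 arrays. In this comparison ru, rho and spi were higher in posterior fragments and no member was lower, 3 of 6 members called where 8.16% of all probes were called. For ru the posterior arrays (1.07 to 1.88, median 1.62) lay above all 13 stop-furrow arrays (-3.35 to 0.50, median -1.93), a difference of 3.34 ± 0.26, or 10.1-fold (adjusted p = 2.78e-08). For rho the posterior arrays (0.79 to 1.48, median 1.07) also lay above all 13 (-3.13 to -0.31, median -1.22), a difference of 2.52 ± 0.24, or 5.73-fold (adjusted p = 4.89e-07). For spi the posterior arrays (0.14 to 0.69, median 0.39) overlapped the stop-furrow arrays (-1.99 to 0.71, median -0.73), and the difference was 1.11 ± 0.26, or 2.16-fold (adjusted p = 0.00771). The values of S (0.21 ± 0.09), Krn (0.18 ± 0.14) and vn (0.10 ± 0.07) were not called. The ru and rho calls held under all 14 settings and without each array, with ru between 3.08 and 3.79 and rho between 2.35 and 4.15. The spi call was lost without posterior replicate 4 (1.01, adjusted p = 0.0637), with scanning day as a fixed block (0.83, adjusted p = 0.172) and with roDom homozygote replicate 2 turned by its header (0.97, adjusted p = 0.106).

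**Figure D2:**
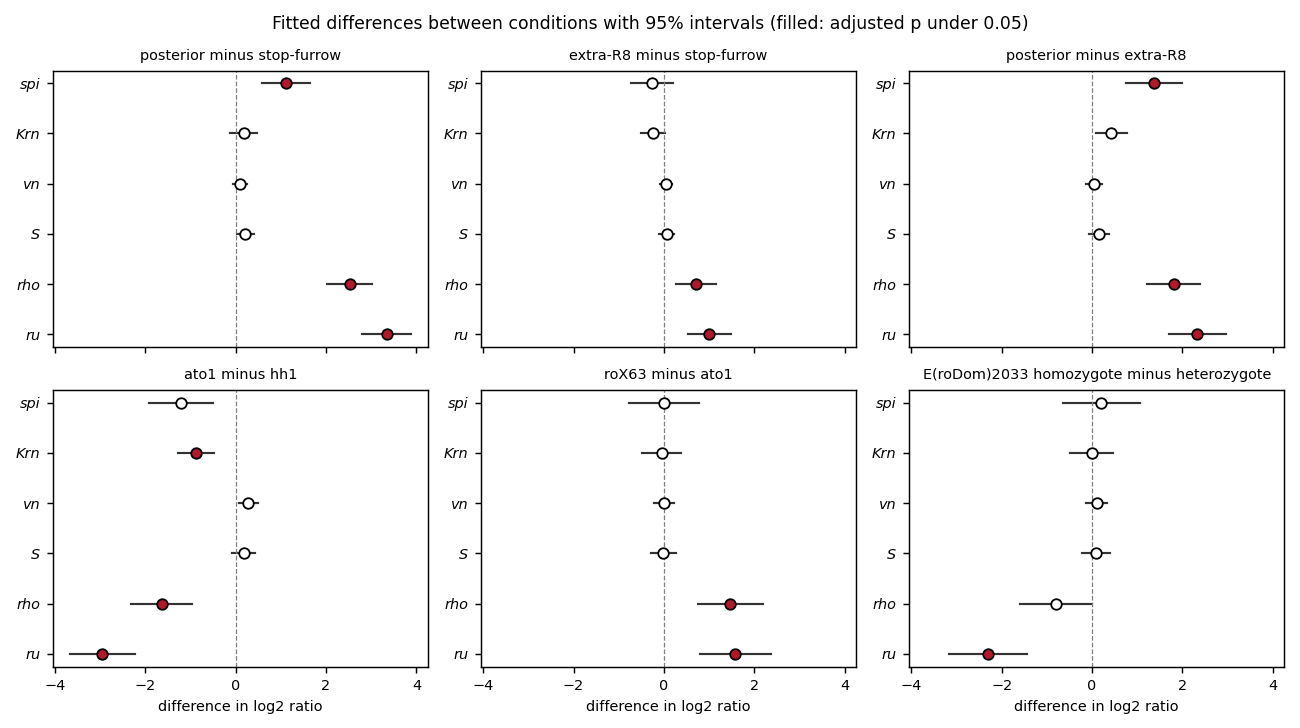
Fitted difference in log2 ratio (horizontal axis) of each member in 6 comparisons between conditions, with 95% intervals and filled points where the adjusted p was under 0.05. In posterior fragments minus stop-furrow discs ru stands at 3.34, rho at 2.52 and spi at 1.11, and in E(roDom)2033 homozygotes minus heterozygotes only ru, at -2.30, was called.

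Extra-R8 discs, which hold more R8 cells than normal, were set against stop-furrow discs. As means over conditions, both proteases were higher in extra-R8 discs, by 1.01 ± 0.23 for ru (2.01-fold, adjusted p = 0.00896) and 0.71 ± 0.21 for rho (1.64-fold, adjusted p = 0.0437), 2 of 6 members where 7.5% of probes were called. Conditions within a group differed. For ru, roX63 stood at -1.39 and Su(roDom)519 at -0.20, beside hh1 (-0.02), roDom (-1.48), E(roDom)2033 (-2.73) and ato1 homozygotes (-2.97). For rho, roX63 stood at -0.93 and Su(roDom)519 at -0.72, beside hh1 (-0.75), roDom (-1.25), E(roDom)2033 (-1.75) and ato1 homozygotes (-2.40). The hh1 value was thus above both extra-R8 conditions for ru and above roX63 for rho. The arrays overlapped for both genes: ru spanned -2.02 to 0.03 in extra-R8 and -3.35 to 0.50 in stop-furrow discs, and rho -1.39 to -0.36 in extra-R8 and -3.13 to -0.31 in stop-furrow discs. The ligands spi (-0.27 ± 0.23), Krn (-0.25 ± 0.13) and vn (0.05 ± 0.06) and the chaperone S (0.06 ± 0.08) were not called. Of the 8 photoreceptor markers 3 were called higher in extra-R8 than in stop-furrow discs and 0 lower, with a median difference of 0.53. The part of these markers in the protease differences was not tested. The ru call held without each array (0.88 to 1.22) and was lost on the 7th array series alone (0.85, adjusted p = 0.082), with roDom homozygote replicate 2 turned by its header (0.81, adjusted p = 0.203) and with the other reading of the E(roDom)2033 labels (1.07, adjusted p = 0.112). The rho call was lost in 7 of 14 settings and without any 1 of 11 of the 19 arrays (0.61 to 0.82 over all 19), namely each of the 3 roDom homozygote and 3 roX63 arrays, E(roDom)2033 homozygote replicates 1 and 3, ato1 replicate 3 and Su(roDom)519 replicates 1 and 3.

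Posterior fragments were also above extra-R8 discs. These too were whole discs of mutants, so dissection and genotype cannot be told apart here either. Here ru differed by 2.33 ± 0.30 (5.03-fold, adjusted p = 7.1e-05), rho by 1.80 ± 0.28 (3.49-fold, adjusted p = 0.000442) and spi by 1.38 ± 0.30 (2.60-fold, adjusted p = 0.00657), 3 of 6 members where 7.52% of probes were called. For spi the arrays lay at 0.14 to 0.69 in posterior fragments and -1.87 to -0.53 in extra-R8 discs, and the ru and rho arrays did not overlap either. How many of all probes had such separate ranges was not counted. The other 3 members were not called. The rho call held under all settings (1.73 to 2.91). No scanning day held both groups, and with the day as a fixed block the ru difference was 1.5 (adjusted p = 0.14) and the spi difference 0.0105 (adjusted p = 0.995). The spi call was also lost without posterior replicate 4 (1.26, adjusted p = 0.0535).

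The stop-furrow mutants did not share 1 level of these genes. Set against hh1 discs, ato1 discs were lower in ru (-2.95 ± 0.35, 7.74-fold, adjusted p = 2.42e-05), in rho (-1.64 ± 0.32, 3.12-fold, adjusted p = 0.00527) and in Krn (-0.88 ± 0.19, 1.84-fold, adjusted p = 0.011), 3 of 6 members where 3.11% of probes were called. The ru arrays lay at -3.35 to -2.52 in ato1 and -0.59 to 0.50 in hh1 discs, far apart. The rho arrays lay at -3.13 to -1.13 in ato1 and -1.13 to -0.31 in hh1 discs, touching but not overlapping. The spi arrays did not overlap either, at -1.99 to -0.73 in ato1 and -0.69 to 0.71 in hh1 discs, and the difference of -1.21 ± 0.34 missed the threshold (adjusted p = 0.0587), which it passed in 4 of the 14 other settings. The ru call held under all 14 settings and without each array (-3.32 to -2.74), and the rho call was lost with scanning day as a fixed block (-0.80, adjusted p = 0.2). The Krn call was lost without ato1 replicate 3 (-0.61, adjusted p = 0.0929) or hh1 replicate 4 (-0.73, adjusted p = 0.0546), and in 3 of the 14 settings. On these arrays the 8 photoreceptor markers averaged -1.15 to -0.56 in ato1 and -0.51 to -0.26 in hh1 discs. Of these 8 genes 2 were called lower in ato1 than in hh1 discs and 0 higher, and their median difference was 0.0014. The fat body markers averaged 0.47 to 3.09 in ato1 and -0.12 to 0.33 in hh1 discs, and the part of either list in the difference was not tested.

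The roX63 discs were above the ato1 discs in both proteases, by 1.58 ± 0.38 in ru (3.00-fold, adjusted p = 0.0232) and 1.47 ± 0.35 in rho (2.77-fold, adjusted p = 0.0229), 2 of 6 members where 2.92% of probes were called. The ru arrays lay at -2.02 to -0.86 in roX63 and -3.35 to -2.52 in ato1 discs. The rho arrays lay at -1.09 to -0.85 in roX63 and -3.13 to -1.13 in ato1 discs, and neither gene's groups overlapped. The value of spi was 0.00 ± 0.37, with a 95% interval of -0.77 to 0.77, and with scanning day as a fixed block it was 1.16 (adjusted p = 0.0352). The ru call was lost without ato1 replicates 1 (1.55) or 3 (1.35) or roX63 replicates 1 (1.53) or 2 (1.33), and the rho call without ato1 replicate 1 (1.00) or any 1 roX63 array (1.43 to 1.58). Of the 8 photoreceptor markers 3 were called higher in roX63 than in ato1 discs and 0 lower, with a median difference of 0.825. Their part in the protease differences was not tested.

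Homozygotes and heterozygotes of E(roDom)2033 differed in ru, by -2.30 ± 0.41 (4.92-fold lower in homozygotes, adjusted p = 0.00788), 1 of 6 members where 1.04% of probes were called. The homozygous arrays lay at -3.35 to -2.23 and the heterozygous arrays at -0.84 to -0.03. The difference of rho was -0.79 ± 0.38 (adjusted p = 0.397), although its arrays did not overlap either, at -2.25 to -1.53 in homozygotes and -1.45 to -0.47 in heterozygotes. This comparison rests on the titles of homozygous replicates 2 and 3: with both read as heterozygous the ru difference was -1.19 (adjusted p = 0.867) and the ru change in heterozygotes against the reference was -1.56 (adjusted p = 0.00957). It was also lost without heterozygote replicate 1 (-1.88, adjusted p = 0.245) and with roDom homozygote replicate 2, an array of neither group, turned by its header (-2.27, adjusted p = 0.123). The 8 photoreceptor markers averaged -1.20 to -1.13 in E(roDom)2033 homozygotes and -0.62 to -0.11 in heterozygotes. Of these 8 genes 1 was called lower in homozygotes than in heterozygotes and 0 higher, and their median difference was -0.60. The 3 fat body markers averaged -0.01 to 1.54 in E(roDom)2033 homozygotes and 0.61 to 2.47 in heterozygotes, and the part of either list in the difference was not tested.

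No member was called by limma in the remaining 4 comparisons. In roX63 minus Su(roDom)519 discs, where 0.618% of probes were called, ru was at -1.19 ± 0.37 (unadjusted p = 0.00442, adjusted p = 0.272) with arrays at -2.02 to -0.86 in roX63 and -0.64 to 0.03 in Su(roDom)519 discs. With scanning day as a fixed block this ru difference was called (-1.19, adjusted p = 0.0233). In roDom homozygotes minus heterozygotes, where 0.00606% of probes were called, the largest difference of a member was that of S (0.54 ± 0.14, unadjusted p = 0.00121, adjusted p = 0.4). In ato1 minus roDom homozygous discs, where 1.04% of probes were called, ru was at -1.49 ± 0.37 (unadjusted p = 0.000637, adjusted p = 0.0562) and rho at -1.15 ± 0.34 (unadjusted p = 0.00315, adjusted p = 0.121), and ru was called in 6 of the 14 other settings, among them with roDom homozygote replicate 2 turned by its header (-2.45, adjusted p = 0.0421). In ato1 minus E(roDom)2033 homozygous discs, where 2.47% of probes were called, no member had an unadjusted p under 0.05, and the 95% interval of ru was -1.02 to 0.55.

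Within a scanning day, the protease directions of posterior fragments against ato1 discs and of ato1 against hh1 discs were the same as over all arrays. On scanning day 5, the posterior arrays read 1.61, 1.07 and 1.88 for ru and the ato1 array -3.03. On the same day rho read 1.48, 1.23 and 0.79 in posterior fragments and -3.13 in the ato1 disc sample, and spi 0.36, 0.41 and 0.69 in posterior fragments and -1.0 in the ato1 disc sample. On day 9, ru read -2.52 in the ato1 sample against 0.48 and 0.50 in hh1 samples, with -2.63 and -2.23 in E(roDom)2033 homozygotes. On that day rho read -1.13 in the ato1 sample against -0.31 and -0.71 in hh1 samples. On day 8 the E(roDom)2033 homozygote read -3.35 for ru against -0.59 in the hh1 sample. On day 6, which held 1 array each of 5 conditions, ru read -0.86 in roX63 and 0.03 in Su(roDom)519, against -3.35 in ato1 and -1.06 in the roDom homozygote. On that day rho read -1.08 in roX63 and -1.39 in Su(roDom)519, against -2.69 in ato1 and -1.22 in the roDom homozygote, so for rho the roX63 sample was above the roDom homozygote and the Su(roDom)519 sample below it. Day 7 held 7 arrays of 4 conditions. There ru read -1.28 and -2.02 in roX63 against 0.00 and -0.64 in Su(roDom)519, with -0.99 and -1.12 in roDom heterozygotes and -0.84 in an E(roDom)2033 heterozygote. On that day rho read -1.09 and -0.85 in roX63 against -0.36 and -0.65 in Su(roDom)519, with -0.89 and -1.81 in roDom heterozygotes and -1.45 in the E(roDom)2033 heterozygote. The ru level of roX63 was thus below that of Su(roDom)519 on days 6 and 7. No day held homozygous and heterozygous E(roDom)2033 discs together, and the remaining 4 days held 1 array each.

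**Figure D3:**
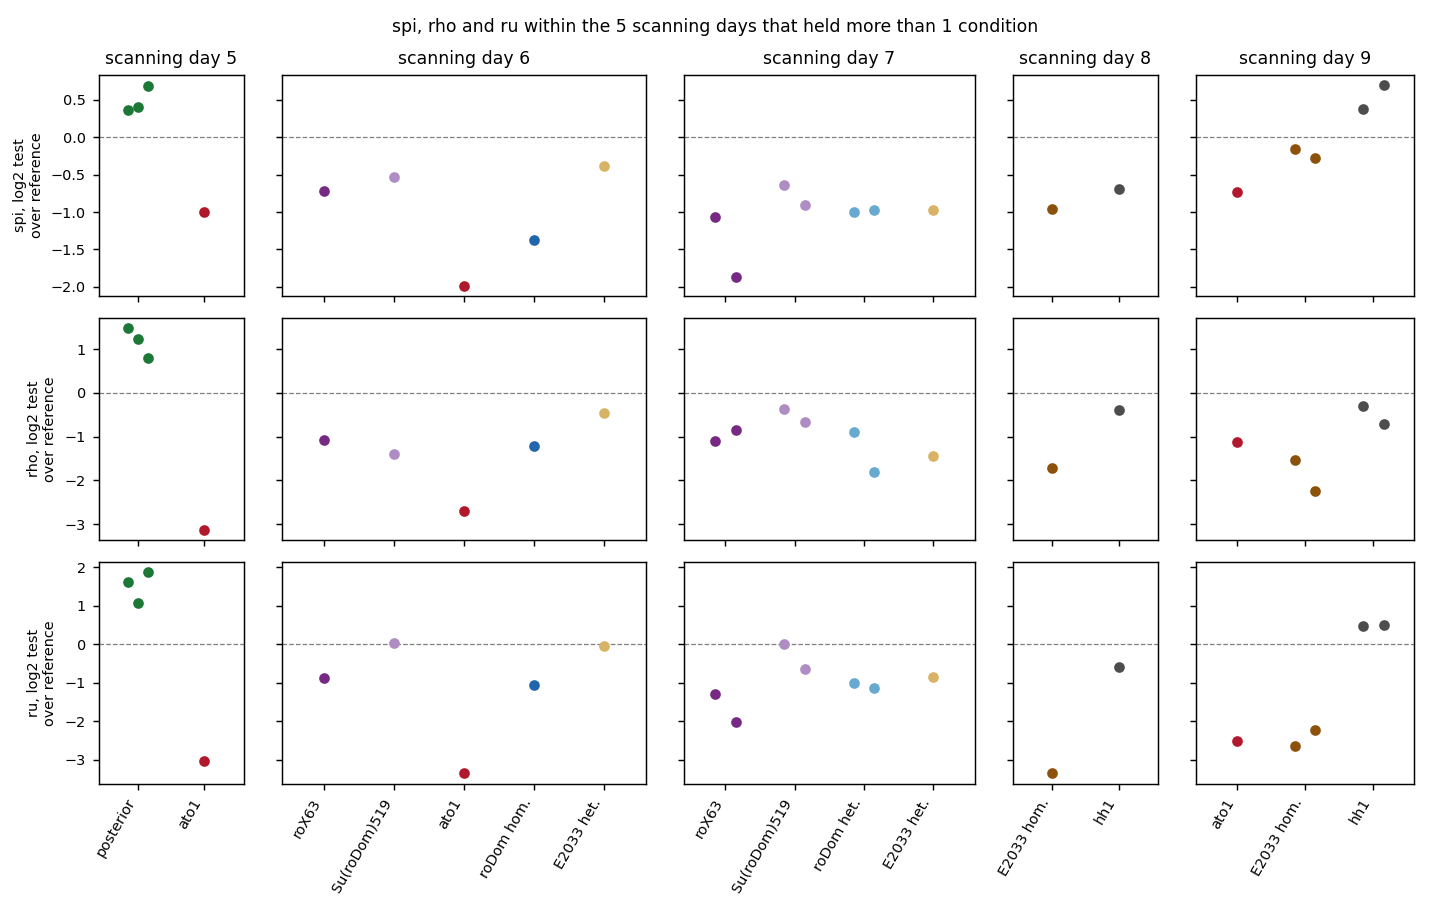
Log2 ratio of test over w1118 reference (vertical axes) of spi, rho and ru on the 5 scanning days that held more than 1 condition, with 1 point per array and conditions along the horizontal axes. On day 5 the 3 posterior arrays lie above the ato1 array for all 3 genes, and on day 9 the 2 hh1 arrays lie above the ato1 array.

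The members varied together to different degrees. Over the 9 condition values, ru and rho had a Pearson correlation of 0.942, and over the 27 arrays 0.863. The pairs spi and Krn (0.843 over conditions and 0.819 over arrays), rho and spi (0.751 and 0.648) and ru and spi (0.724 and 0.730) followed. The pairs with S or vn had correlations of -0.700 to 0.362 over conditions. These points share the reference RNA and, within a condition, the genotype, and the values are descriptions of 9 conditions.

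**Figure D4:**
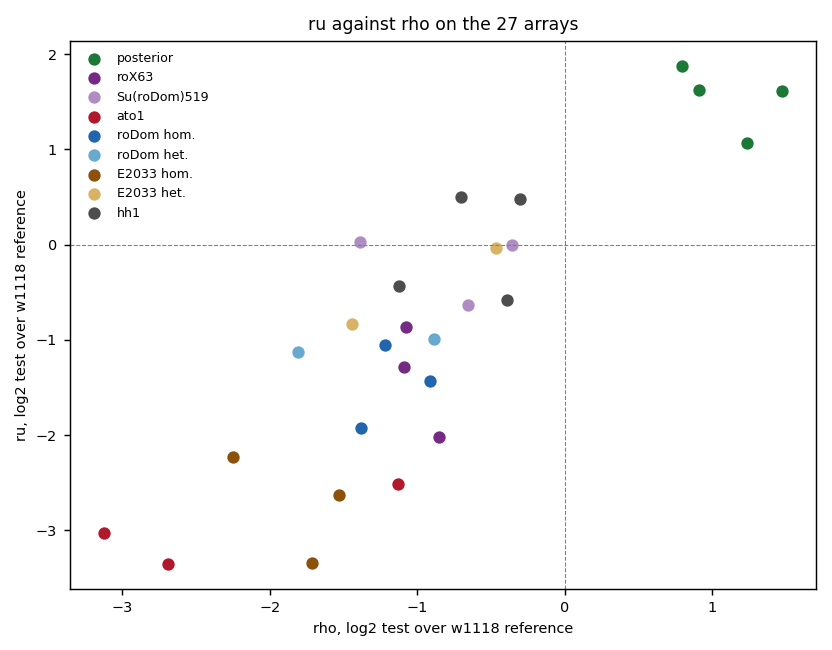
Log2 ratio of ru (vertical axis) against that of rho (horizontal axis) on the 27 arrays, each over the w1118 reference and coloured by condition. The 4 posterior arrays lie at the upper right and the ato1 and E(roDom)2033 homozygote arrays at the lower left, with a Pearson correlation of 0.863 over all arrays.

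Among 7081 genes with a symbol, measured on at least 20 arrays, the patterns most like that of ru over the 9 condition values were those of cn (r = 0.972), retn (0.966) and aPKC (0.963). For rho they were CenG1A (0.985), aop (0.976) and Ank2 (0.972). For spi they were CaMKI (0.970), inaC (0.965) and Klc (0.962). For Krn they were Tmx3 (0.926), the rhomboid relative rho-4 (0.925) and S1P (0.924), and for S they were Su(dx) (0.961), Swim (0.922) and kek5 (0.901). Over the 27 arrays these correlations were lower, at 0.622 to 0.947 for ru, 0.802 to 0.901 for rho, 0.912 to 0.921 for spi, 0.551 to 0.885 for Krn and 0.547 to 0.704 for S. All points share the reference RNA, and these are the highest of many values.

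The genes ru and rho lie near each other on chromosome arm 3L in the RefSeq annotation of Release 6, with CG32320, CG9168, FucTD, CG9173 and SA2 between them. Of these, CG9168, FucTD, CG9173 and SA2 had a probe. In posterior minus stop-furrow discs they differed by 0.00, 0.04, 0.05 and 0.01, none called, beside 3.34 for ru and 2.52 for rho. Against the reference they were not called in posterior fragments or ato1 discs, and CG9173 was lower in E(roDom)2033 homozygotes (-0.31 ± 0.10, adjusted p = 0.0432). The gene next to spi on arm 2L, CG13077, was higher in posterior fragments (1.12 ± 0.18, adjusted p = 0.000833) and lower in ato1 discs (-0.82 ± 0.21, adjusted p = 0.0139), and it was 1.59 ± 0.21 higher in posterior fragments than in stop-furrow discs (adjusted p = 2.39e-05). On the other side of spi, msb1l was not called in these comparisons. The genes gNacalpha and ast beside S, CG9166 beside ru, CG7484 beside Krn, and mad2 and CG5568 beside vn were not called in posterior fragments, ato1 discs or posterior minus stop-furrow discs.

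The rest of the EGFR pathway was read from 27 genes, of which 26 had a probe and Gap1 had none. In posterior minus stop-furrow discs 4 of 26 were higher and 1 lower, where 5.1% of all probes were higher and 3.06% lower, with a median difference of 0.03 beside -0.01 for all probes. Those higher were aos, the secreted inhibitor argos that EGFR signalling induces (1.94 ± 0.16, adjusted p = 5.95e-08), the ETS-family repressor aop (1.5 ± 0.29, adjusted p = 0.00152), the ETS-family activator pnt (1.09 ± 0.26, adjusted p = 0.00851) and the adaptor dos by 1 of its 2 probes (0.66 ± 0.15, adjusted p = 0.0058), of which the other read 0.09. The lower one was rho-7, the mitochondrial rhomboid (-0.52 ± 0.08, adjusted p = 0.000144). Of the 6 ligand and rhomboid relatives (grk, stet, rho-4, rho-5, rho-6 and rho-7), only rho-7 was called there, and of the 11 genes from the receptor to the kinase cascade only dos.

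**Figure D5:**
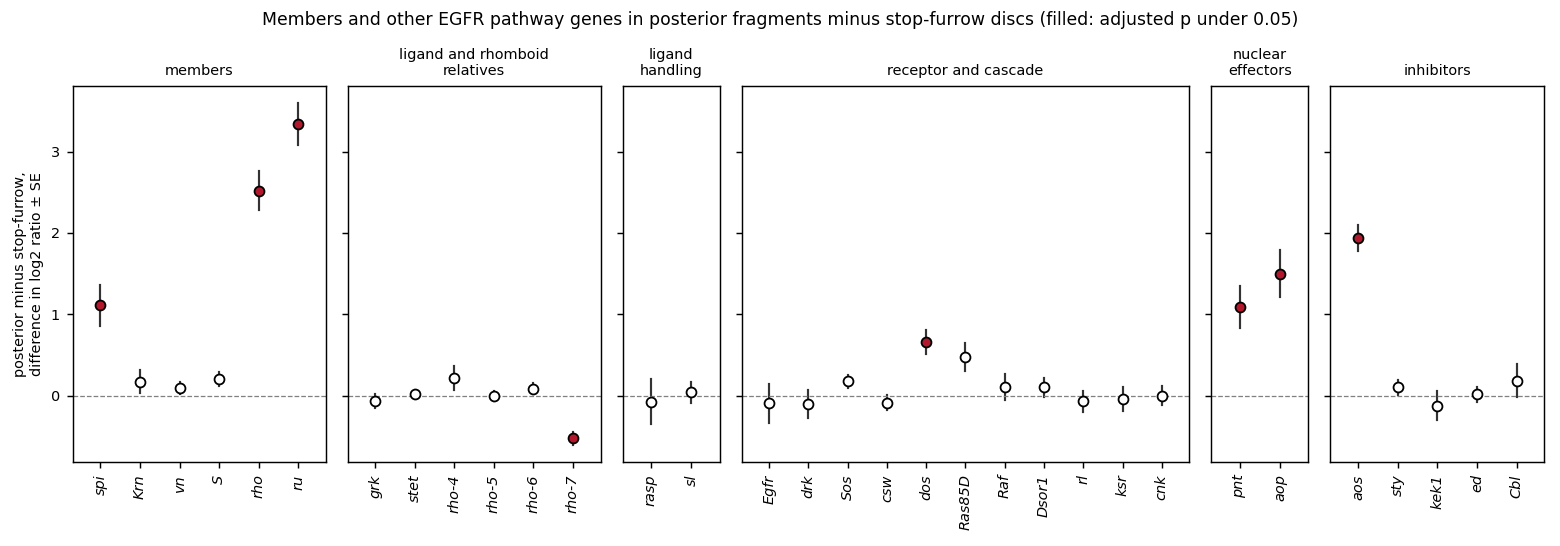
Fitted difference in log2 ratio between posterior fragments and stop-furrow discs (vertical axis, point ± SE) for the 6 members and 26 other EGFR pathway genes (horizontal axis), filled where the adjusted p was under 0.05. The members ru, rho and spi and the genes aos, aop, pnt and dos were higher in posterior fragments, and rho-7 was lower.

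In extra-R8 minus stop-furrow discs aos (0.88 ± 0.14, adjusted p = 0.00089) and the kinase gene rl (0.39 ± 0.11, adjusted p = 0.0371, with its other probe at 0.20) were higher and rho-7 lower (-0.43 ± 0.07, adjusted p = 0.000879). In posterior minus extra-R8 discs only aos was called, higher by 1.06 ± 0.19 (adjusted p = 0.00144). In ato1 minus hh1 discs only rho-7 was called (-0.41 ± 0.11, adjusted p = 0.0376), in roX63 minus ato1 discs only aos (0.91 ± 0.23, adjusted p = 0.036), and in E(roDom)2033 homozygotes minus heterozygotes aos was lower (-1.31 ± 0.26, adjusted p = 0.0157) and rho-7 higher (0.55 ± 0.13, adjusted p = 0.0356). Against the reference, aos, aop and dos were each lower in 7 of 9 conditions. For dos these calls rest on 1 probe, with changes of -1.09 to -0.53 in those 7 conditions, and its other probe read between -0.46 and 0.00 there. The gene aos fell most in E(roDom)2033 homozygotes (-2.34 ± 0.16, adjusted p = 6.52e-09). In posterior fragments the kinase gene rl (-0.59 ± 0.11, adjusted p = 0.00343, with its other probe at 0.02) and rho-7 (-0.26 ± 0.07, adjusted p = 0.0336) were lower and none of the 26 was higher. In ato1 minus E(roDom)2033 homozygous discs rho-7 was lower (-0.53 ± 0.11, adjusted p = 0.0157), and in the other 3 comparisons between conditions none of the 26 was called. Over the mutant conditions 2 to 7 of the 26 genes were lower than the reference, with 7 in roX63, roDom heterozygous and hh1 discs and 2 in Su(roDom)519 discs. Of all probes 7.05% were lower in roX63, 3.12% in roDom heterozygous, 2.59% in hh1 and 2.02% in Su(roDom)519 discs, and over the 8 mutant conditions the share ran from 1.87% to 7.05%. Of the 26 genes 2 were higher in E(roDom)2033 homozygotes, where 7.12% of all probes were, and 1 in hh1 discs, where 2.78% were.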

How the data were processed

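RNA of 27 disc samples was measured on custom 2-colour glass arrays. Per the labels, tested RNA passed 2 rounds of T7 amplification and the w1118 reference 1 round, and replicates were independent. Per the file headers, the deposited scanner files hold the pixel intensity of 17664 spots and their local background in both channels. The deposited files also give the percent of saturated pixels and a score per spot that marks bad, absent or not found spots. The deposited value table holds the authors' log2 ratio of reference over test, shifted by a constant per array, and served only as an alternative. In it the column of hh1 replicate 2 is exactly minus that of Su(roDom)519 replicate 3 over 10353 probes, so that replicate was left out there. All its columns were assigned to samples.

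Spots scored -75 or below did not enter. The median foreground and background entered normexp correction with an offset of 50 and global loess within arrays, with control spots at weight 0 (limma 3.58.1, R 4.3.3). Ratios were turned to test over reference by the labelled dye, and spots of a probe were averaged. One limma fit held 9 condition means and a dye term, with two-sided moderated tests and Benjamini-Hochberg adjustment within each of 19 comparisons. Probes needed at least 2 measured arrays per condition. Stop-furrow and extra-R8 groups weight their conditions equally. The p-values measure the spread between these arrays, and their number limits the precision. The labelled dye gave roDom homozygote replicate 2 correlations across probes of 0.446 with replicate 1 and 0.278 with replicate 3, and replicates 1 and 3 had 0.334.

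Probes were named through the RefSeq table of Release 6: 12714 by locus tag, 20 by symbol, 2752 by synonym and 8 by synonym and transcript number, while 469 matched several genes and 537 none. Named genes are the members, the pathway list, neighbours of members, the 3 genes most like each called member, and ro, ato and hh. Pathway genes are named when called in posterior fragments or between conditions. Members and lists were chosen with earlier results of these data known. Tested on simulated data with 16494 probes for posterior fragments against the reference, the fit called 95 of 100 probes changed by 1 and 100 of 100 changed by 2 on the log2 scale, among 207 called, of which 12 were unchanged. The simulated noise was independent between arrays and held no shared effect of scanning day, array series or dye. These rates therefore do not measure recovery on the arrays themselves. Figures were drawn with matplotlib 3.10.9. Alternatives changed the dye term, background, normalization, probe filter, blocks, label readings and arrays used. No sequence is shown.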

Additional observations from a re-analysis of the deposited data

Results flagged for a closer look

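In ato1 minus hh1 discs, 2 mutants whose furrow stops, 3 members differed by a test of the difference itself. The values were -2.95 for ru, -1.64 for rho and -0.88 for Krn, each lower in ato1 discs. The limma fit gave adjusted p-values of 2.42e-05, 0.00527 and 0.011 in that order of genes. In E(roDom)2033 homozygotes minus heterozygotes the ru difference was -2.30 (adjusted p = 0.00788), and it rests on titles that other labels of 2 homozygous arrays contradict. Dixon's test was run only for posterior fragments and hh1 discs, the conditions with 4 arrays, and no array stood apart there for any member. With so few arrays the test can miss an outlying array. The other conditions, among them ato1 and roX63 discs, were not tested for outlying arrays.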

How the results depend on the processing

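Of the 37 member results that passed the threshold, 8 passed under all 14 alternative settings and with every single array of the compared conditions left out: ru and rho in ato1 discs, in E(roDom)2033 homozygotes and in posterior minus stop-furrow discs, ru in ato1 minus hh1 discs and rho in posterior minus extra-R8 discs. Arrays of other conditions, which share the fit, were not left out. In none did the sign turn while called. Among the 14 settings alone, with arrays left in, 9 of the 37 passed under every one and 7 missed the threshold under the fixed day block and no other. Of the 77 other results, 17 passed under at least 1 of the 14 settings or with 1 array left out. With a fixed block for the scanning day, the calls lost were ru at 1.15 in posterior, -0.95 in roDom homozygotes, -0.94 in roX63 and 1.5 in posterior minus extra-R8, and rho at -1.39 in roDom homozygotes, -0.83 in roX63 and -0.80 in ato1 minus hh1. It also ended the calls of S at -0.62 in roDom heterozygotes, -0.32 in E(roDom)2033 homozygotes, -0.32 in E(roDom)2033 heterozygotes, -0.29 in ato1, -0.48 in hh1 and -0.22 in roX63, and spi at -0.88 in roDom homozygotes, -0.50 in roX63, 0.83 in posterior minus stop-furrow and 0.0105 in posterior minus extra-R8. Lost with it were Krn at 0.18 in hh1, -0.015 in roX63 and -0.81 in ato1 minus hh1. With the day as a random block, the call was lost for rho at 0.82 in extra-R8 minus stop-furrow, and S at -0.32 in E(roDom)2033 homozygotes, -0.38 in E(roDom)2033 heterozygotes, -0.27 in ato1 and -0.28 in roX63. Also lost were the calls of spi at 1.12 in posterior minus extra-R8, and Krn at 0.44 in hh1 and -0.37 in roX63. With the array series as a fixed block, the call was lost for ru at -1.14 in roDom homozygotes, and rho at -1.11 in roDom homozygotes, -0.73 in hh1 and 0.65 in extra-R8 minus stop-furrow. It likewise ended the calls of S at -0.28 in ato1, and spi at -1.0 in roDom homozygotes. It also ended the calls of Krn at -0.45 in roX63. On the 7th array series alone, the call was lost for ru at -1.04 in roDom homozygotes and 0.85 in extra-R8 minus stop-furrow, and rho at -1.5 in roDom homozygotes, -0.56 in hh1 and 0.74 in extra-R8 minus stop-furrow. Lost with it were spi at -1.37 in roDom homozygotes, and Krn at 0.52 in hh1 and -0.45 in roX63. With roDom homozygote replicate 2 turned by its header, chosen after seeing the data, the call was lost for ru at -0.55 in roDom homozygotes, 0.81 in extra-R8 minus stop-furrow, 1.64 in roX63 minus ato1 and -2.27 in E(roDom)2033 homozygotes minus heterozygotes, and rho at 0.95 in posterior, -0.66 in roDom homozygotes, -1.35 in roDom heterozygotes, -0.78 in hh1, -0.91 in roX63, 0.59 in extra-R8 minus stop-furrow and 1.51 in roX63 minus ato1. Also lost were the calls of spi at -0.55 in roDom homozygotes and 0.97 in posterior minus stop-furrow, and Krn at -0.45 in roX63. With E(roDom)2033 homozygote replicates 2 and 3 read as heterozygous, the call was lost for ru at 1.07 in extra-R8 minus stop-furrow, 1.65 in roX63 minus ato1 and -1.19 in E(roDom)2033 homozygotes minus heterozygotes, and rho at -0.77 in hh1 and 0.75 in extra-R8 minus stop-furrow. It likewise ended the calls of S at -0.35 in E(roDom)2033 homozygotes. Without a dye term, the call was lost for rho at -0.63 in hh1, 0.58 in extra-R8 minus stop-furrow and 1.31 in roX63 minus ato1, and S at -0.43 in E(roDom)2033 heterozygotes and -0.29 in ato1. It also ended the calls of Krn at 0.43 in hh1 and -0.41 in roX63. With scale normalization, the call was lost for rho at -0.70 in hh1, 0.55 in extra-R8 minus stop-furrow and 1.27 in roX63 minus ato1, and S at -0.30 in E(roDom)2033 homozygotes and -0.27 in ato1. In the deposited value table, the call was lost for rho at -0.97 in hh1, and S at -0.35 in ato1. Lost with it were Krn at 0.45 in hh1 and -0.86 in ato1 minus hh1. With median centring, the call was lost for S at -0.38 in E(roDom)2033 heterozygotes and -0.31 in ato1, and Krn at 0.48 in hh1, -0.48 in roX63 and -0.88 in ato1 minus hh1. Without background subtraction, the call was lost for S at -0.42 in E(roDom)2033 heterozygotes and -0.28 in ato1, and Krn at -0.44 in roX63. With print-tip loess, the call was lost for Krn at 0.45 in hh1 and -0.44 in roX63. With mean foreground, chosen after seeing the data, the call was lost for S at -0.24 in E(roDom)2033 homozygotes. With spots above background, the call was lost for S at -0.23 in ato1. With single arrays left out, ru ranged over -1.68 to -1.21 in roDom homozygotes, -1.65 to -1.0 in roX63, 1.33 to 1.99 in roX63 minus ato1 and -2.74 to -1.88 in E(roDom)2033 homozygotes minus heterozygotes. rho ranged over 0.90 to 1.08 in posterior, -1.32 to -1.15 in roDom homozygotes, -1.59 to -1.11 in roDom heterozygotes and -0.88 to -0.55 in hh1. rho ranged over -0.97 to -0.83 in roX63, 0.61 to 0.82 in extra-R8 minus stop-furrow and 1.00 to 1.97 in roX63 minus ato1. S ranged over -0.84 to -0.54 in roDom heterozygotes, -0.36 to -0.33 in E(roDom)2033 homozygotes, -0.49 to -0.36 in E(roDom)2033 heterozygotes and -0.39 to -0.23 in ato1. S ranged over -0.34 to -0.29 in roX63. spi ranged over -1.21 to -0.92 in roDom homozygotes, -1.5 to -0.77 in ato1, -1.47 to -0.86 in roX63 and 1.01 to 1.19 in posterior minus stop-furrow. spi ranged over 1.15 to 1.48 in posterior minus extra-R8. Krn ranged over 0.32 to 0.63 in hh1, -0.57 to -0.25 in roX63 and -1.03 to -0.61 in ato1 minus hh1. The number of probes called ran over 382 to 1419 (758 as reported) in posterior, 0 to 697 (665 as reported) in roDom homozygote, 409 to 1122 (806 as reported) in roDom heterozygote and 562 to 2396 (2171 as reported) in E(roDom)2033 homozygote. It ran over 248 to 1221 (562 as reported) in E(roDom)2033 heterozygote, 1195 to 3232 (1674 as reported) in ato1, 382 to 1222 (886 as reported) in hh1 and 649 to 2237 (2104 as reported) in roX63. It ran over 287 to 993 (726 as reported) in Su(roDom)519, 534 to 1711 (1346 as reported) in posterior minus stop-furrow, 363 to 1340 (1237 as reported) in extra-R8 minus stop-furrow and 386 to 1872 (1241 as reported) in posterior minus extra-R8. It ran over 294 to 672 (513 as reported) in ato1 minus hh1, 308 to 689 (481 as reported) in roX63 minus ato1, 69 to 250 (102 as reported) in roX63 minus Su(roDom)519 and 0 to 1 (1 as reported) in roDom homozygotes minus heterozygotes. It ran over 20 to 280 (172 as reported) in E(roDom)2033 homozygotes minus heterozygotes, 27 to 274 (172 as reported) in ato1 minus roDom homozygote and 172 to 603 (407 as reported) in ato1 minus E(roDom)2033 homozygote. With arrays of its groups left out one at a time it ran over 276 to 528 in posterior, 146 to 627 in roDom homozygote, 10 to 109 in roDom heterozygote, 577 to 2201 in E(roDom)2033 homozygote and 21 to 62 in E(roDom)2033 heterozygote. It then ran over 810 to 1578 in ato1, 428 to 1097 in hh1, 624 to 1462 in roX63, 77 to 211 in Su(roDom)519 and 785 to 1465 in posterior minus stop-furrow. It then ran over 733 to 1812 in extra-R8 minus stop-furrow, 486 to 1184 in posterior minus extra-R8, 305 to 591 in ato1 minus hh1, 254 to 861 in roX63 minus ato1 and 49 to 96 in roX63 minus Su(roDom)519. It then ran over 0 to 164 in roDom homozygotes minus heterozygotes, 15 to 187 in E(roDom)2033 homozygotes minus heterozygotes, 65 to 345 in ato1 minus roDom homozygote and 109 to 651 in ato1 minus E(roDom)2033 homozygote. The value table was tested on 5616 probes and without hh1 replicate 2, and the filter on spots above background left 8798 probes, so the adjusted p-values there rest on fewer tests. For the other losses the cause was not tested. Signal over background limits vn and S most. Every member had 1 probe, so the use of every probe of a member was not run. No paired analysis was possible because the labels number arrays and not replicates shared between conditions.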

Other observations

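The undecided probe CG8056g, which belongs to Krn or to its neighbour Ndfip, had means of 0.11 ± 0.15 in posterior fragments (SD, n = 4), 0.21 ± 0.23 in ato1 discs (n = 3) and -0.11 ± 0.10 in hh1 discs (n = 4). The Krn probe CG8056f had 0.06 ± 0.09, -0.44 ± 0.30 and 0.43 ± 0.45 in the same 3 conditions, so the 2 probes of this number had opposite signs in ato1 and hh1 discs. The ato1 minus hh1 difference of CG8056g was 0.32 ± 0.17 (limma, adjusted p = 0.388), beside -0.88 ± 0.19 for CG8056f (adjusted p = 0.011).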
